A study of Danio rerio with 2 samples.

Results

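The cytosolic ribosomal protein genes encode the protein part of the ribosome, and they were described here in single-cell transcriptomes of whole zebrafish embryos at shield stage, early in gastrulation. The members were taken by symbol from the deposited gene list, as all genes named rps or rpl with a number, an optional letter and an optional copy number, together with the stalk genes rplp0, rplp1 and rplp2. This rule held 78 of 27597 gene identifiers, under 77 symbols, because rpl37 is carried by 2 identifiers. They comprised 33 genes of the small subunit (rps), 42 of the large subunit (rpl) and 3 of the stalk (rplp), and no measured value entered the choice. The rule leaves out rpsa, rack1, faua, faub, rplp2l, rpl7l1, rpl22l1 and others, whose products are ribosomal or closely related to ribosomal proteins, and it includes the paralogs rps26l and rps27l.

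A ribosome holds 1 copy of almost every ribosomal protein. Its small subunit reads the mRNA and its large subunit forms the peptide bond. The stalk proteins recruit the translation factors, and some of them are present in more than a single copy. The mRNAs of these genes share a short pyrimidine tract at their start, through which their translation is controlled together, and they are among the most abundant transcripts of growing cells. In human and mouse cells several free ribosomal proteins, among them those encoded by RPL5 and RPL11, bind the p53 inhibitor MDM2, and RPS27L is a target gene of p53.

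The data comprise 1 library of MZwnt11/slb embryos, which are maternal-zygotic mutants of the Wnt ligand gene wnt11f2 and are written MZwnt11f2/slb in the study, and 1 library of wildtype embryos. Both were untreated whole embryos at the same stage, dissociated and fixed in acetic acid and methanol (ACME), and sorted as DAPI-stained singlets. The sources used here do not give the number of embryos. In MZwnt11/slb 7911 cells were counted, with 40025626 UMIs (unique molecular identifiers, each taken as 1 mRNA molecule) and a median of 4595 per cell, and in wild type 8862 cells, with 37370253 UMIs and a median of 3873.5. The libraries shared 16 cell barcodes. The mitochondrial share of UMIs was 6.05% in MZwnt11/slb cells and 5.69% in wild-type cells. The mutated gene wnt11f2 was counted at 41.4 CPM (UMIs of a gene per 1000000 UMIs) in MZwnt11/slb cells and 99.3 in wild-type cells, which does not check the labels because a mutant mRNA is still counted by its 3′ end. With 1 library per genotype no test between genotypes was possible: the 95% intervals given for shares (exact binomial) and for ratios (exact conditional, of 2 Poisson counts) cover counting error only, and genotype and library cannot be told apart.

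To measure how much of the transcriptome these genes took up, their UMIs were summed over all cells of a library. Ribosomal protein mRNAs made up 10.51% of UMIs in the MZwnt11/slb library (95% interval 10.496 to 10.515%) and 11.04% in the wild-type library (11.03 to 11.05%). The share was thus lower in MZwnt11/slb cells by a log2 ratio of -0.07. The 3 parts of the ribosome did not differ alike. Small subunit genes took up 4.39% in MZwnt11/slb and 4.75% in wild-type cells (log2 ratio -0.11), large subunit genes 5.68% and 5.90% (-0.06), and the stalk genes 0.442% and 0.395%, which was higher in the mutant library (0.16). The higher stalk sum rested on rplp0 (0.50), while rplp1 (-0.07) and rplp2 (-0.51) were lower. It also leaves out the copy rplp2l, which the symbol rule does not hold and which was lower too (68928 UMIs in MZwnt11/slb and 70891 in wild type, -0.14). One gene, rps2, accounted for 18.5% of the summed difference, and the log2 ratio was -0.06 without it.

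Single cells varied around these values by more than counting noise. The interquartile range was 9.68% to 11.4% in MZwnt11/slb cells and 10.3% to 11.9% in wild-type cells. The standard deviation over cells was 1.40 percentage points in MZwnt11/slb and 1.31 in wild type, against 0.472 and 0.529 from counting alone. The share hardly followed depth: over the 10 groups of cells in order of their UMI count it lay between 10.3% and 10.7% in MZwnt11/slb cells and between 10.8% and 11.2% in wild-type cells. Across cells of 1 library the rank correlation of the share with the UMI count was -0.04 in MZwnt11/slb and -0.03 in wild type, where both measures come from the same counts.

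Cells were then clustered without the ribosomal protein genes, so that the classes do not rest on them, and clusters were named from marker lists. Of 18 clusters, 15 were named, in 9 classes, and the 3 unnamed ones held 887 MZwnt11/slb cells and 870 wild-type cells. In each class most or all detected markers of its own list were higher than in the other cells of the same library, except in the non-neural ectoderm-like class, where 7 of 10 were higher in MZwnt11/slb and 5 of 10 in wild type, so that this name is weak. The naming rule itself asks for 3 or more raised markers in a cluster, so these counts are no independent check of the names. Cluster 14, which made up 22.0% of the paraxial and lateral mesoderm-like class in MZwnt11/slb and 12.2% in wild type, met the rule with 5 markers of that class but also held 8 markers of axial mesoderm and 6 of endoderm, at median depths of 10174.5 and 7862 UMIs. Cluster 13, the whole yolk syncytial layer-like class, met the rule with 6 markers of that layer but also held 7 markers of a p53 response and 6 of endoderm, so that this class was mixed in its markers. Other classes held foreign markers too, in most clusters fewer of any other list than of their own. Cluster 10, in the non-neural ectoderm-like class, held 3 of neural ectoderm beside 3 of its own. Cluster 1, the whole axial mesoderm-like class, held 7 of endoderm beside 10 of its own. Cluster 8, most of the paraxial and lateral mesoderm-like class, held 7 of endoderm and 7 of the posterior ventrolateral margin beside 11 of its own. The enveloping layer, an outer epithelium, was the clearest, with all 12 keratin and other epithelial markers higher and summed to 63396 CPM in MZwnt11/slb and 72615 in wild type, against 367 and 431 in the other cells.

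Among the named classes, the ribosomal protein share followed a similar order in both libraries. Germ cell-like cells had the lowest share with this clustering, at 7.96% (7.85 to 8.08%, 32 cells) in MZwnt11/slb and 8.56% (8.41 to 8.71%, 26 cells) in wild type. Enveloping layer-like cells followed with 8.82% (8.80 to 8.85%, 772 cells) and 9.27% (9.25 to 9.30%, 826 cells), and yolk syncytial layer-like cells, named for the extraembryonic layer that overlies the yolk, with 10.1% (84 cells) and 9.95% (142 cells). The highest share of a named class was that of paraxial and lateral mesoderm-like cells, with 11.3% (11.2 to 11.3%) in MZwnt11/slb and 11.97% (11.94 to 11.997%) in wild type. The remaining 5 classes lay close together, between 10.6% and 10.9% in MZwnt11/slb and between 11.1% and 11.6% in wild type, and their order differed between the libraries. Unnamed cluster 16, with 18 cells in MZwnt11/slb and 10 in wild type, stood higher than any named class, at 11.54% and 12.26%. Unnamed cluster 5, with 461 and 298 cells, stood at 9.27% in MZwnt11/slb, below the yolk syncytial layer-like class, and at 10.04% in wild type. In unnamed cluster 2, with 408 and 562 cells, the share was 11.12% in MZwnt11/slb and 11.09% in wild type.

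The order depended on how cells were assigned. When cells were taken by markers without clustering, the lowest share was that of yolk syncytial layer cells, at 7.73% in 4 MZwnt11/slb cells and 8.69% in 29 wild-type cells. Germ cells then stood at 8.78% in MZwnt11/slb and 9.99% in wild type, and enveloping layer cells at 8.95% and 9.44%, so that in wild type germ cells lay above the enveloping layer. Endoderm cells, which formed no named cluster, stood at 11.44% in MZwnt11/slb and 11.98% in wild type by markers, and paraxial and lateral mesoderm cells at 11.05% and 11.92%.

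**Figure D1:**
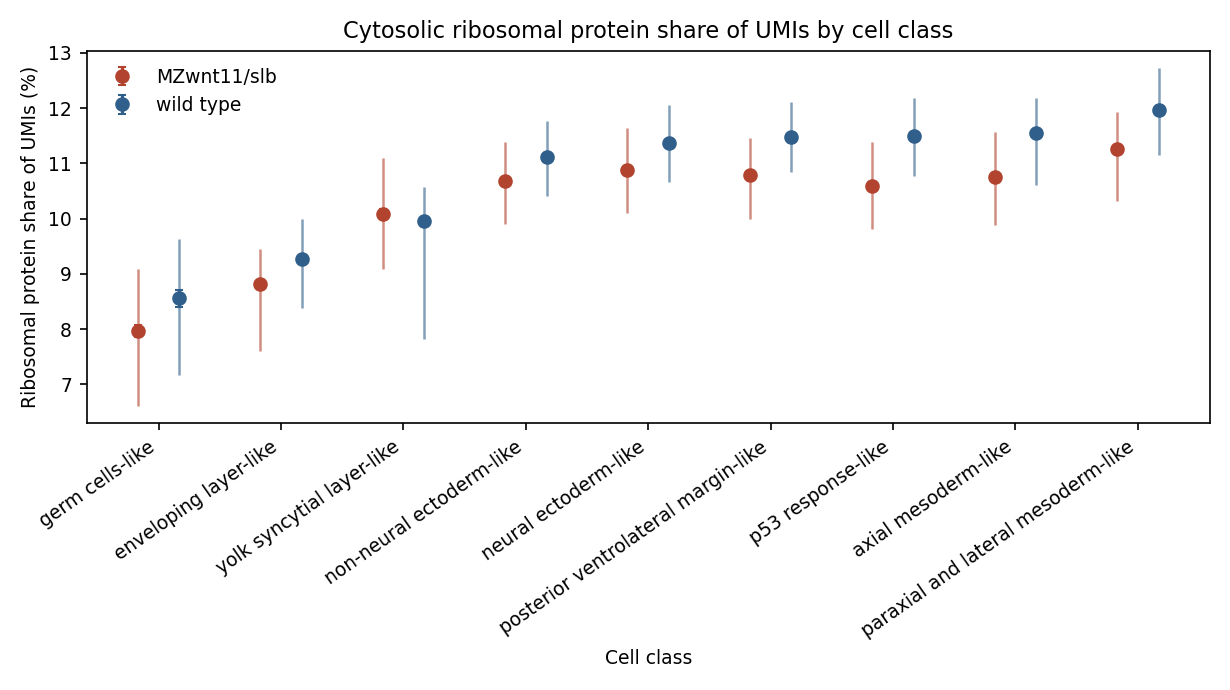
Share of UMIs from ribosomal protein genes (y axis, percent, not starting at 0) in each cell class (x axis) of the MZwnt11/slb and wild-type libraries. Points are the summed share with its 95% counting interval and thin lines the interquartile range of single cells: germ cell-like and enveloping layer-like cells lie lowest in both libraries, and the yolk syncytial layer-like class is the one in which the MZwnt11/slb point, at 10.1%, lies above the wild-type point, at 9.95%.

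Relative to all other cells of the same library, enveloping layer-like cells had a ribosomal protein share with a log2 ratio of -0.29 (-0.29 to -0.28) in MZwnt11/slb and -0.28 (-0.29 to -0.28) in wild type. Germ cell-like cells had -0.40 (-0.42 to -0.38) and -0.37 (-0.40 to -0.34), values that rest on few cells and on where the class was drawn: with cells taken by markers and no clustering they were -0.26 and -0.15, and without centring by sample the wild-type class grew to 434 cells and stood at -0.10. The median enveloping layer-like cell held 467 ribosomal protein UMIs at a median depth of 5711 UMIs in MZwnt11/slb and 476 at 5258 in wild type. For comparison, the median paraxial and lateral mesoderm-like cell held 524 at 4718 in MZwnt11/slb and 465 at 3839 in wild type.

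The enveloping layer-like class was made of different clusters in the libraries. Cluster 9 held 590 cells of MZwnt11/slb only, with a share of 8.08%, and cluster 17 held 676 cells of wild type only, with 8.96%. Cluster 12 held cells of both, with 10.2% in 182 MZwnt11/slb cells and 10.2% in 150 wild-type cells. With this cluster alone, the log2 ratio to all other cells was -0.08 in MZwnt11/slb and -0.14 in wild type. Cells of cluster 12 had more UMIs, with medians of 8867 in MZwnt11/slb and 7245.5 in wild type, and a lower summed level of the enveloping layer markers, at 34284 and 41494 CPM, than clusters 9 and 17, at 79471 in MZwnt11/slb and 82877 in wild type. Markers of neural ectoderm, by contrast, were at 1571 and 1166 CPM in cluster 12, against 480 in cluster 9 and 377 in cluster 17. Cells outside the neural ectoderm-like class held more of them, at 1872 CPM in MZwnt11/slb and 1771 in wild type. Markers of mesoderm, endoderm and the posterior ventrolateral margin were also higher in cluster 12. Those of non-neural ectoderm were lower, at 1211 and 1644 CPM, against 1498 in cluster 9 and 1863 in cluster 17. Doublets were not removed, and their part in cluster 12 was not tested.

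Between the libraries the share was lower in MZwnt11/slb in 8 of the 9 classes, with log2 ratios between -0.12 (-0.13 to -0.11) in p53 response-like cells, named for target genes of p53, and -0.06 (-0.06 to -0.05) in non-neural ectoderm-like cells. The yolk syncytial layer-like class stood at 0.02 (0.00062 to 0.039), a direction that was reversed in the few cells taken by markers (7.73% in MZwnt11/slb and 8.69% in wild type). Median UMIs in that class were 4869 per cell in MZwnt11/slb and 2621.5 in wild type. Different clusters also held most of the neural ectoderm-like class (cluster 4 with 53.7% of it in MZwnt11/slb, cluster 11 with 71.7% in wild type) and of the non-neural ectoderm-like class (clusters 10 and 7 in MZwnt11/slb, clusters 6 and 10 in wild type). Within each of these 5 clusters the share was still lower in MZwnt11/slb, for example 10.48% against 10.95% in cluster 4 and 11.4% against 11.6% in cluster 11.

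Most members were expressed at similar levels. Of the 77 members with at least 100 UMIs over both libraries, 73 lay between 500 and 3000 CPM in both, and 69 were detected in at least 90% of cells of both libraries. Each molecule is counted once by its 3′ end, so these levels were not scaled by gene length, whose effect on them was not tested. The highest were rpl12, a protein at the base of the stalk, with 2955 CPM in MZwnt11/slb and 2961 in wild type, and rpl23, with 2958 and 2875, followed by rpl39 with 2658 and 2792, rps14 with 2144 and 2543, and rps12 with 2327 and 2218. The order of the members by level was alike in the libraries, with a rank correlation of 0.95 over the 77 members, which share the 2 libraries.

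A few members stood far below the others. The second rpl37 identifier (ENSDARG00000076360, to which a reference gene table gives the symbol COA1) had 11.2 CPM in MZwnt11/slb and 16.9 in wild type, whereas the main one (ENSDARG00000034291) had 1946 and 1912. The large subunit gene rpl26 had 15.3 and 7.14, rps27l 89.3 and 141, and rplp2 320.5 and 456. The next lowest member, rpl34, did not stand apart. It had 529 CPM in MZwnt11/slb and 524 in wild type, close to rps27.2 with 540 and 564. The copy rps8b was counted with 14 UMIs in MZwnt11/slb and 9 in wild type, against 81060 and 79017 for rps8a, and is the member that did not reach 100 UMIs. Reads shared between near-identical copies may be split or left uncounted, so the levels of rpl37, rpl26 and the paralogs are uncertain.

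Single members were then compared between the libraries. Of the 77 members, 54 were lower and 23 higher in MZwnt11/slb, with a median log2 ratio of -0.07, against -0.09 over all 11756 genes with at least 100 UMIs. With median-of-ratios scaling, which moves the median of all genes to -0.02, 37 members were lower and 40 higher, so that the balance of directions depends on the scaling. The interval lay below 0 for 47 members and above 0 for 20, and it held 0 for 10. At least 1.5-fold lower were 4 members, among them rps2, rps27l and the second rpl37, where 20.6% of all genes were that much lower. After cells under 1000 UMIs or over 10% mitochondrial UMIs were left out, 2 members, among them rps2, were still past this fold, while rps27l (-0.56) and the second rpl37 (-0.58) lay just inside it. At least 1.5-fold higher was 1 member, rpl26, where 12.7% of all genes were that much higher. The members were thus past this fold less often than genes at large, many of which have far lower counts. The 234 genes with at least 40741 UMIs, members and mitochondrial genes left out, had a median log2 ratio of 0.006 (quartiles -0.13 and 0.21). That is above the members' median of -0.07 (quartiles -0.18 and 0.02), though the quartile ranges overlap. The 234 genes have no upper limit of UMIs, so they are not matched to the members in level. Of these 234 genes, 63.2% had a log2 ratio within 0.25 of 0. This compares with 84.4% of all 77 members, which include rpl26, the second rpl37, rps27l and rplp2 below that minimum.

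In the small subunit, rps2 differed most. It was counted with 43258 UMIs in MZwnt11/slb and 77511 in wild type, or 1081 and 2074 CPM, a log2 ratio of -0.94 (-0.96 to -0.92). It was the 53rd most abundant member in MZwnt11/slb and the 15th in wild type. The log2 ratio was below 0 in all 9 classes, between -1.04 in p53 response-like cells and -0.74 in yolk syncytial layer-like cells. In enveloping layer-like cells rps2 had 834 CPM in MZwnt11/slb and 1633 in wild type, and in paraxial and lateral mesoderm-like cells 1309 and 2447. The difference was thus of similar size where the gene was low and where it was high.

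Most other small subunit genes lay between -0.25 for rps14, which had 2144 CPM in MZwnt11/slb and 2543 in wild type, and 0.18 for rps15a, which had 1645 and 1455. The ratio of rps27l is described with its cell classes below.

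In the stalk, the genes went in opposite directions. The scaffold gene rplp0 had 94246 UMIs in MZwnt11/slb and 62073 in wild type, or 2355 and 1661 CPM (log2 ratio 0.50, 0.49 to 0.52), which made it the 4th most abundant member in MZwnt11/slb and the 27th in wild type. Its log2 ratio was above 0 in all 9 classes, between 0.26 in germ cell-like cells, where the interval held 0, and 0.87 in yolk syncytial layer-like cells. Of its partners, rplp2 was lower, with 12830 and 17059 UMIs (-0.51, -0.54 to -0.48) and a log2 ratio below 0 in all 9 classes, while rplp1 was at 1745 and 1836 CPM (-0.07).

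In the large subunit, rpl26 was highest in ratio but among the lowest in level, with 611 UMIs in MZwnt11/slb and 267 in wild type (log2 ratio 1.10, 0.89 to 1.31), and its ratio was above 0 in each of the 5 classes with at least 50 UMIs. The second rpl37 identifier had 450 and 632 UMIs (-0.59, -0.77 to -0.41). Among abundant genes, rpl13a stood at 1533 CPM in MZwnt11/slb and 1251 in wild type (0.29) and rpl19 at 1226 and 1019 (0.27), both above 0 in all 9 classes. On the lower side were rpl17 with 1386 and 1713 (-0.31) and rpl4 with 778 and 951 (-0.29). Smaller positive ratios were those of rpl14 (0.10), rpl7a (0.10) and rpl38 (0.09). Across the 74 members counted in all 9 classes, 21 had a ratio below 0 and 6 a ratio above 0 in every class, and 47 had both signs.

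**Figure D2:**
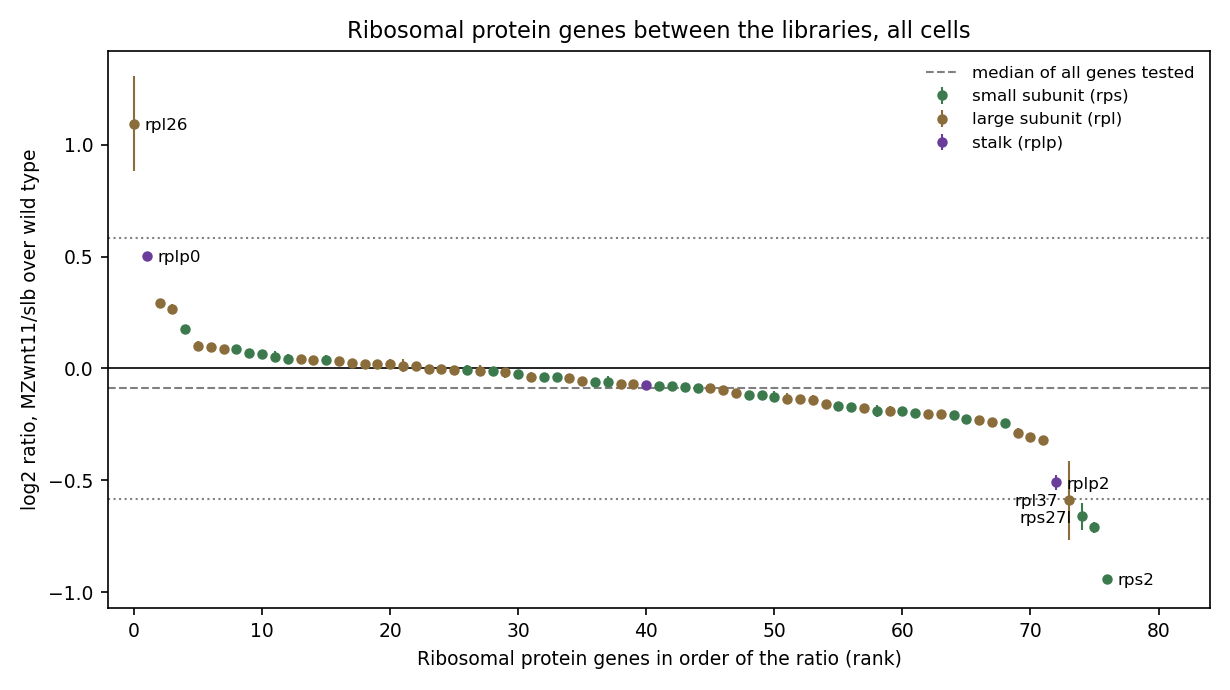
Log2 ratio of MZwnt11/slb over wild type (y axis) for the 77 ribosomal protein genes with at least 100 UMIs, in falling order (x axis, rank from 0), coloured by subunit, with 95% counting intervals. Most genes lie close to the dashed median of all genes at -0.09, rpl26 lies above the upper dotted line of 1.5-fold and 4 genes, among them rps2, rps27l and the second rpl37, lie below the lower one; a few genes are labelled.

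Members were next compared between each class and the other cells of the same library. In the enveloping layer-like class 75 of 77 members were lower than in the other cells in both libraries, with a median log2 ratio of -0.28 in MZwnt11/slb and -0.28 in wild type, so that the lower share was spread over nearly all members. Over all genes counted there the median was -0.42 in MZwnt11/slb and -0.47 in wild type. At least 1.5-fold lower were 2 members in MZwnt11/slb (rps27l and rps26), where 39.6% of all genes were, and 3 in wild type (these and the second rpl37), where 43.9% were. The members higher in both libraries were rplp2 (log2 ratio 0.18 in MZwnt11/slb and 0.24 in wild type) and rpl5a (0.07 and 0.05), while rps26 stood at -0.59 and -0.61.

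In the germ cell-like class 73 of 74 members were lower in both libraries, with medians of -0.43 in MZwnt11/slb and -0.36 in wild type. At least 1.5-fold lower were 12 members in MZwnt11/slb and 11 in wild type, and 5 were so in both libraries. The genes that reached the UMI minimum of a class here numbered 1382, against 11756 tested over all cells. Their median was 0.05 in MZwnt11/slb and 0.06 in wild type, and 9.77% and 10.3% of them were at least 1.5-fold lower. In so few cells the minimum favours genes that are high in this class, while the abundant members pass it anyway. These background values therefore cannot show whether the members were lower than genes at large. Germ cell-like cells were few, and the examples given here rest on 77 to 415 UMIs each. The stalk gene rplp1 had a log2 ratio of -0.68 in MZwnt11/slb and -0.92 in wild type, rps27.1 of -0.93 and -0.67, and rps29 of -0.82 and -0.63, whereas rpl24 was at -0.05 and -0.0027. In the paraxial and lateral mesoderm-like class 75 of 77 members were higher in both libraries, with medians of 0.12 and 0.14 and with rps2 among the highest, at 0.34 in MZwnt11/slb and 0.27 in wild type.

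One member, rps27l, lay at least 1 on the log2 scale from the members' median of a class in both libraries, and it was higher in p53 response-like cells. In p53 response-like cells rps27l had 1429 CPM in MZwnt11/slb (1659 UMIs in 230 cells) and 1130 in wild type (2196 UMIs in 435 cells), against 49.2 and 87.0 in all other cells. The log2 ratio to the other cells was 4.86 in MZwnt11/slb and 3.70 in wild type. The next largest ratio of an abundant member in this class was that of rpl19, at 0.31 and 0.31, and the members' median was -0.02 and 0.04. Neither rps27l nor any other member had entered the clustering or the marker list of this class, which holds mdm2, ccng1, phlda3, sesn3 and other p53 target genes. These markers summed to 7815 CPM in MZwnt11/slb and 7146 in wild type p53 response-like cells, and to 1521 and 1889 in the other cells.

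Of all rps27l UMIs, 46.4% in MZwnt11/slb and 41.6% in wild type came from these cells, which made up 2.91% and 4.91% of the cells. The gene had at least 1 UMI in 99.1% of p53 response-like cells of MZwnt11/slb and in 96.3% of those of wild type, and in 15.6% and 22.9% of the other cells. After each cell was thinned to 2944 UMIs, which left out 1055 MZwnt11/slb and 2215 wild-type cells, the shares were 94.6% and 91.5% in p53 response-like cells and 10.2% and 17.5% in the other cells. The median p53 response-like cell held 7 UMIs of rps27l in MZwnt11/slb and 4 in wild type, at median depths of 4861 and 4099 UMIs. Yolk syncytial layer-like cells came next, with 108 CPM in MZwnt11/slb and 282 in wild type, and their p53 markers summed to 2952 and 5422. The lowest level was 38.8 in enveloping layer-like cells of MZwnt11/slb and 70.4 in those of wild type. In neural ectoderm-like cells rps27l lay below the members' median by the same measure (-1.37 in MZwnt11/slb and -1.07 in wild type), but there the other cells include the p53 response-like class. Against the 49.2 and 87.0 CPM of all cells outside that class, neural ectoderm-like cells had 39.6 CPM in MZwnt11/slb and 76.4 in wild type, so that they were not set apart, and the same holds for the low ratio of rps27l in enveloping layer-like cells. The part of free RNA in the low level outside the p53 response-like class was not tested.

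**Figure D3:**
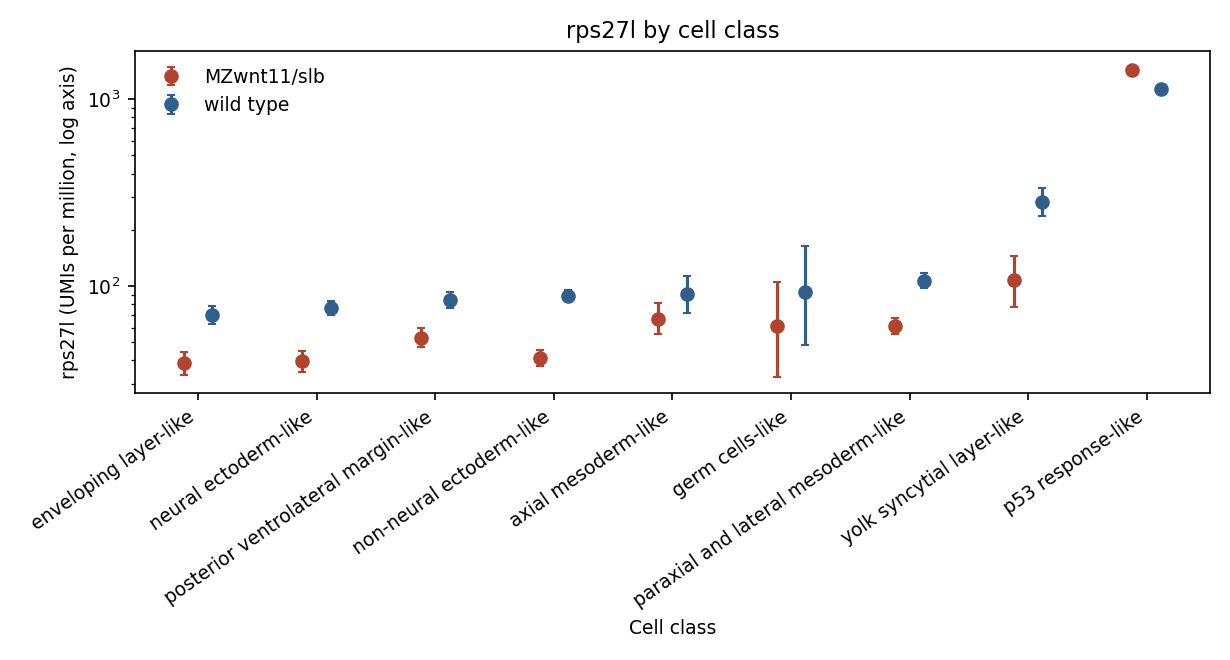
Level of rps27l (y axis, CPM, log axis) in each cell class (x axis) of the MZwnt11/slb and wild-type libraries, with 95% counting intervals. The p53 response-like class stands at 1429 in MZwnt11/slb and 1130 in wild type, and it is the one class in which the MZwnt11/slb point lies higher.

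Between the libraries rps27l differed in sign among the classes. In p53 response-like cells it was higher in MZwnt11/slb, with a log2 ratio of 0.34 (0.24 to 0.43), whereas in all other cells together it was lower, with -0.82 (-0.90 to -0.74). It was below 0 in each of the other 8 classes, between -1.39 (-1.93 to -0.88) in yolk syncytial layer-like cells and -0.44 in axial mesoderm-like cells, where the interval reached 0.00, and the interval also held 0 in germ cell-like cells (-1.86 to 0.65). Over all cells rps27l was at 89.3 CPM in MZwnt11/slb and 141 in wild type (-0.66, -0.72 to -0.60). With the classes weighted as in wild type this value was -0.24, and with p53 response-like cells left out it was -0.82.

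**Figure D4:**
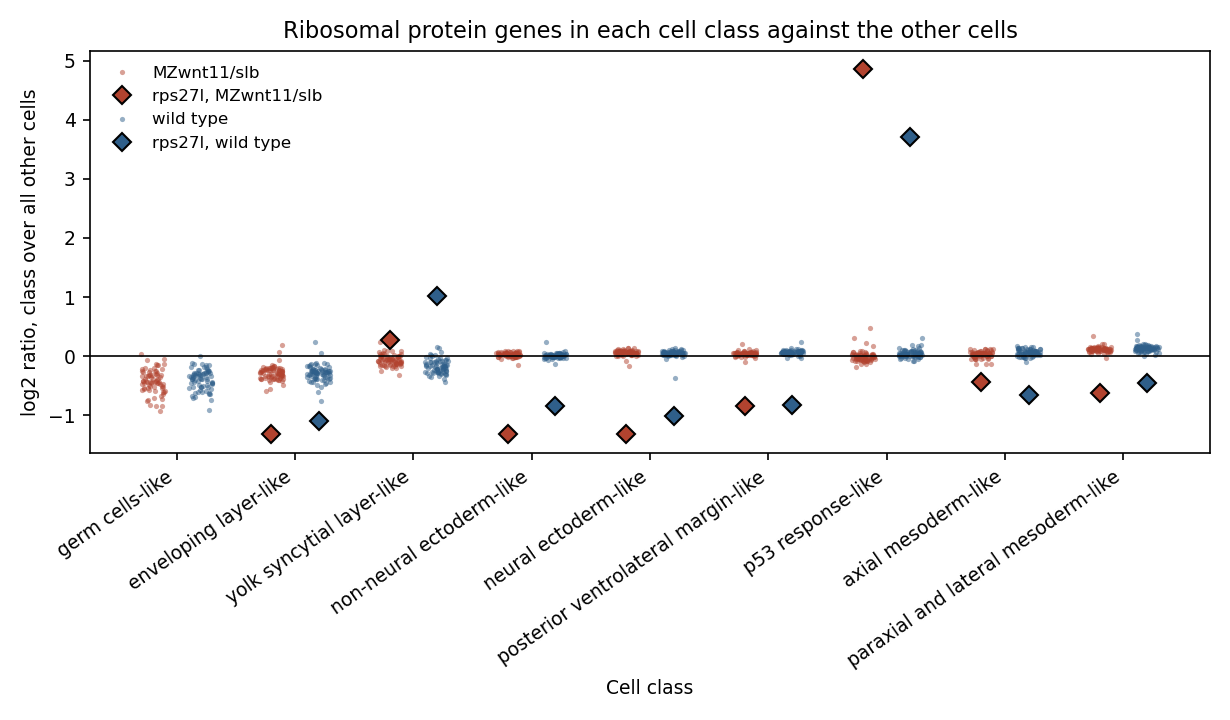
Log2 ratio of each ribosomal protein gene in a class over all other cells of the same library (y axis) for the MZwnt11/slb and wild-type libraries in each cell class (x axis), where small points are single genes (50 or more UMIs in the class) and diamonds are rps27l, which has fewer in the germ cell-like class. Most genes of a class move together, with medians of -0.28 and -0.28 in enveloping layer-like cells, while rps27l stands at 4.86 and 3.70 in p53 response-like cells; in the other classes its ratio is taken against cells that include these.

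Zebrafish carry several ribosomal protein genes in 2 copies, and the share of a copy within its pair is a measure that total depth does not enter. In the pair of rplp2 and rplp2l, rplp2 made up 15.7% of the UMIs in MZwnt11/slb (15.4 to 15.9%) and 19.4% in wild type (19.1 to 19.7%). In enveloping layer-like cells it made up 22.7% (21.8 to 23.7%) and 27.9% (26.9 to 28.8%), against 14.9% and 18.5% in the other cells. The summed level of the pair was lower in that class, at 1573 CPM in MZwnt11/slb and 1892 in wild type, with rplp2l itself at 1215 and 1365, against 1722 and 1897 over all cells.

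The same class stood apart in further pairs. The copy rpl5a, of rpl5a and rpl5b, made up 38.5% in enveloping layer-like cells of MZwnt11/slb and 36.3% in those of wild type, compared with 31.5% and 31.1% in the other cells. The copy rps26l, of rps26l and rps26, made up 63.9% and 66.2%, compared with 57.2% and 58.1%. The pair of rps27.1 and rps27.2 did not follow: rps27.1 made up 64.6% (63.3 to 65.8%) in enveloping layer-like cells of MZwnt11/slb and 63.7% (62.4 to 64.9%) in those of wild type, against 63.6% and 62.7% in the other cells, whose values lie within these intervals. In germ cell-like cells rps27.1 was at 52.7% (45.6 to 59.8%) and 55.8% (47.1 to 64.2%), with 106 UMIs of rps27.1 in MZwnt11/slb and 77 in wild type. In the pair of rps8a and rps8b, rps8b was at 0.0173% in MZwnt11/slb and 0.0114% in wild type.

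Between the libraries the ratio of a summed pair lies between those of its copies by construction. The log2 ratio was -0.20 (-0.22 to -0.19) for rplp2 and rplp2l together, compared with -0.51 for rplp2 and -0.14 for rplp2l. It was -0.16 for rpl5a and rpl5b, -0.16 for rps26l and rps26, and -0.03 for rps27.1 and rps27.2. Both copies of these last 3 pairs had a ratio below 0, although that of rps27.1 was -0.0075 with an interval that held 0 (-0.028 to 0.013).

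**Figure D5:**
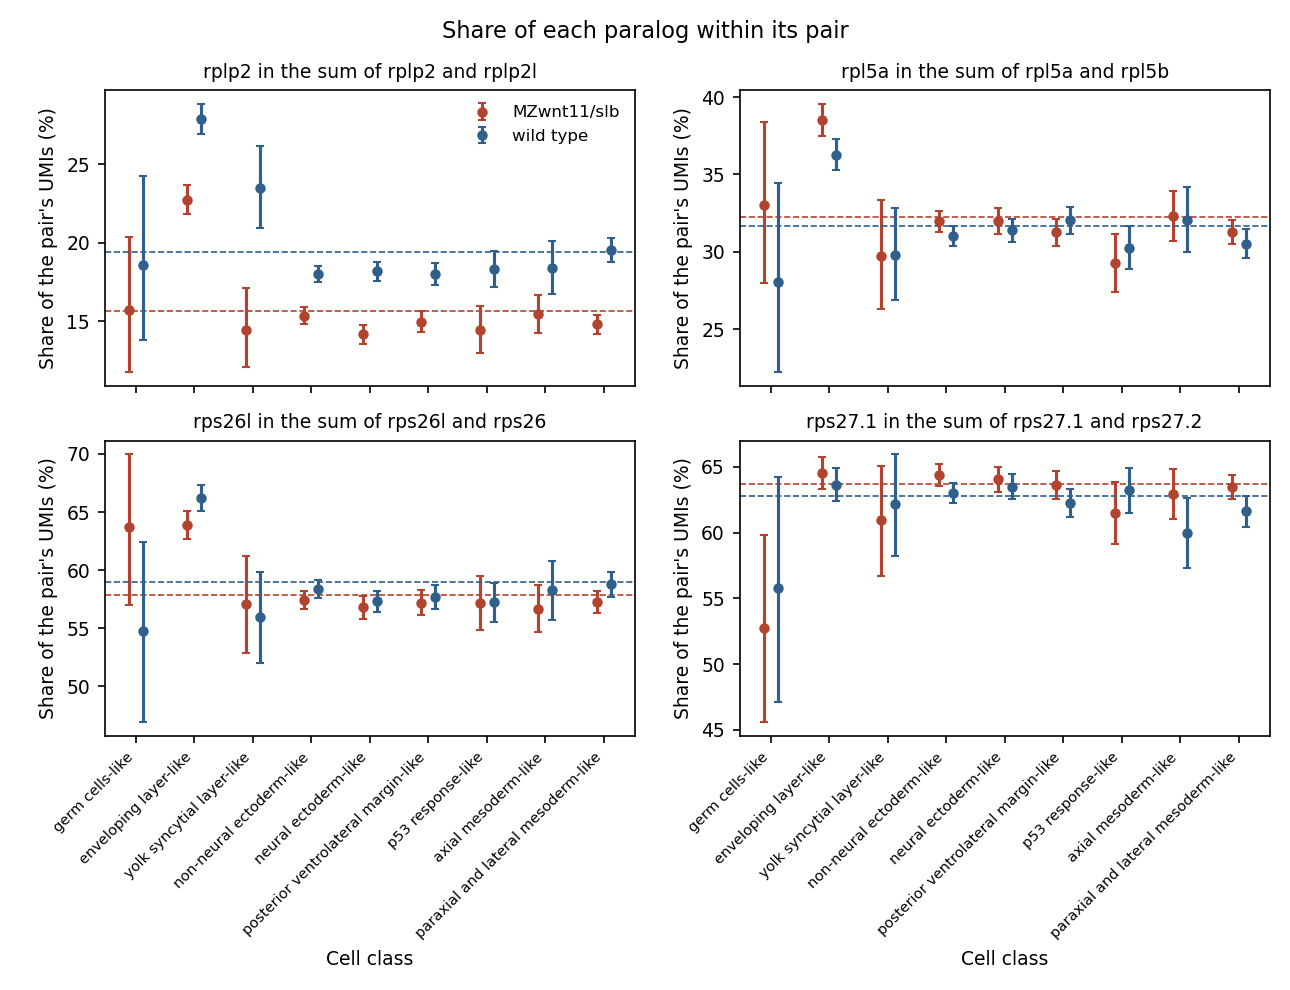
Share of the first copy in the UMIs of 4 paralog pairs (y axes, percent, not starting at 0) by cell class (x axis) in the MZwnt11/slb and wild-type libraries, with 95% counting intervals and dashed lines for all cells of each library. In enveloping layer-like cells rplp2 stands at 22.7% and 27.9%, rpl5a at 38.5% and 36.3% and rps26l at 63.9% and 66.2%, all above their lines, whereas rps27.1 stands at 64.6% and 63.7%.

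Lists of related genes were set beside the members. The 8 cytosolic ribosomal protein or related genes outside the symbol rule took up 0.818% of UMIs in MZwnt11/slb and 0.832% in wild type, with 0 of 8 past 1.5-fold between the libraries, and they shared the low level in enveloping layer-like cells (log2 ratio to the other cells -0.38 in MZwnt11/slb and -0.39 in wild type). Among them rpsa, a small subunit protein, was higher in MZwnt11/slb (105626 and 88312 UMIs, 0.16) and faua, whose product holds a ribosomal protein of the small subunit, was lower (36548 and 41450 UMIs, -0.28). Of 65 ribosome biogenesis genes, which process rRNA and assemble the subunits, 8 were at least 1.5-fold lower and 2 at least 1.5-fold higher in MZwnt11/slb, with a median of -0.18. Of 74 mitochondrial ribosomal protein genes 10 were lower and 1 higher (median -0.26), of 29 tested translation factor and other pyrimidine-tract genes 3 were lower and 1 higher (-0.07), and of 40 tested proteasome genes, a list taken by symbol that also holds the meiosis gene psmc3ip, 4 were lower and 3 higher (-0.02). The shares to read these counts against are the 20.6% of all genes lower and the 12.7% higher given above.

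These lists separated the enveloping layer-like and germ cell-like classes. In enveloping layer-like cells the summed ribosome biogenesis genes were lower than the ribosomal protein genes relative to the other cells, with log2 ratios of -0.90 in MZwnt11/slb and -0.98 in wild type, as were the mitochondrial ribosomal protein genes with -0.75 and -0.83. The summed proteasome genes were at -0.34 and -0.39. For all genes counted there the median, rather than a sum, was -0.42 and -0.47. The list of translation factors and other pyrimidine-tract genes was at -0.07 and -0.03. That sum is weighted to the elongation factor gene eef1a1l1, with 694407 UMIs in MZwnt11/slb and 568095 in wild type, and also holds hnrnpa1b and tpt1, which do not encode translation factors. In germ cell-like cells the order was another one. The same list was at -0.45 in MZwnt11/slb and -0.50 in wild type, near the ribosomal protein genes at -0.40 and -0.37, the biogenesis genes at -0.13 and -0.09, and the mitochondrial ribosomal protein genes were higher than in the other cells, at 0.68 and 0.57. The proteasome genes were at 0.09 and 0.09.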

How the data were processed

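The authors deposited raw UMI counts per gene and cell barcode from Chromium 3′ v3.1 libraries, without normalization. The file headers and processing notes name Cell Ranger 6.1.1, which is not the version in the methods, and GRCz11. All deposited cells were used. Counts without the member genes were scaled by size factors, put on a log10(x + 1) scale, standardized, reduced to 30 principal components and taken as residuals on log10 UMIs and sample, in place of Monocle3's alignment, and cells were clustered on 20 nearest neighbours by the Leiden algorithm (scanpy 1.11.5, resolution 1, seed 0). To be named, a cluster had to hold 3 or more markers of a class, each with 10 or more UMIs and 1.5-fold or more over the other cells, and no other class with more markers among its top 10 genes by fold (at least 50 UMIs). The neighbour search (double precision, rounded components, exact neighbours) was changed after values of a first run had been seen, so that the clusters would not depend on the machine. Doublets were not removed and no doublet caller was run. Ratios were scaled to total UMIs and counted as past the fold at 1.5-fold, among genes with at least 100 UMIs over both libraries (50 within a class). Intervals are exact binomial or exact conditional Poisson (95%, scipy 1.17.1). In libraries simulated with Poisson counts for MZwnt11/slb over wild type (11756 genes, 200 of them changed) 95.5% of changed and 95.2% of unchanged intervals held the true ratio. This checks the calculation only, because no spread beyond counting was simulated. The members and lists were chosen with earlier results of these data known. Named members are the 5 highest and 5 lowest levels, the 8 largest and 8 smallest ratios, those at least 1 (log2) from the members' median in a class in both libraries, and paralog pairs; further members named for a class, and genes of the lists, were chosen after their values were seen. Gene sequences and coordinates were not used here. Alternatives were cell filters, cells of high UMI count left out, thinned cells, other totals and scaling, other UMI minimums and folds, resolutions 0.5 and 2, other seeds, no centring by sample, members kept in the clustering and cells taken by markers; the enveloping layer-like cluster shared by both libraries and the leaving out of p53 response-like cells were added after seeing the data. A few genes that count in the summary values are not reported here by name.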

Additional observations from a re-analysis of the deposited data

Results flagged for a closer look

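The gene rps27l differed between the libraries in opposite directions in 2 classes. In p53 response-like cells its log2 ratio of MZwnt11/slb over wild type was 0.34 (0.24 to 0.43), whereas in yolk syncytial layer-like cells it was -1.39 (-1.93 to -0.88), from 42 UMIs in MZwnt11/slb and 136 in wild type. The summed p53 markers went the same way as rps27l in both classes, with 7815 CPM in MZwnt11/slb and 7146 in wild type in p53 response-like cells, and 2952 and 5422 in yolk syncytial layer-like cells. The cluster of the yolk syncytial layer-like class held 7 markers of the p53 response beside 6 of its own name. The summed ribosomal protein share had a positive log2 ratio in yolk syncytial layer-like cells, at 0.020 (0.00062 to 0.039), while it was negative in the other 8 classes. In cells taken by yolk syncytial layer markers without clustering the share was 7.73% in 4 MZwnt11/slb cells and 8.69% in 29 wild-type cells, the opposite direction. With 1 library per genotype these differences between classes were not tested.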

How the results depend on the processing

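The summed ribosomal protein share stayed lower in MZwnt11/slb under each alternative run for it, with a log2 ratio of -0.072 as reported, -0.079 with the cell filter (at least 1000 UMIs, at most 10% mitochondrial), -0.080 without the 5% of cells with most UMIs, -0.066 without mitochondrial genes, -0.074 as a mean over cells, -0.075 in thinned cells and -0.069 with each class at its wild-type share of UMIs. All of these are shares of UMI totals. Median-of-ratios scaling was run for single members only, and it adds the same amount to every log2 ratio. With it rps2 moved from -0.940 to -0.868, and the median of all genes from -0.089 to -0.017. That amount is about as large as the summed difference of -0.072, so the lower summed level does not hold under this scaling. The enveloping layer-like class stayed below the other cells throughout. In MZwnt11/slb it stood at -0.285 as reported, -0.279 with the cell filter, -0.342 without the cells of most UMIs, -0.317 without mitochondrial genes, -0.318 as a mean over cells, -0.318 in thinned cells, -0.292 at resolution 0.5, -0.290 with the members kept in the clustering, -0.263 by markers alone and -0.080 in the cluster shared by both libraries, and in wild type at -0.284 as reported, -0.289, -0.300 and -0.305 under the first 3 of these, -0.296 in thinned cells, -0.258 by markers alone and -0.144 in the shared cluster. Over 5 other seeds of the clustering the range was -0.412 to -0.287 in MZwnt11/slb and -0.331 to -0.285 in wild type. The germ cell-like class, with the fewest cells, stood in MZwnt11/slb at -0.401 as reported, -0.547 with the cell filter, -0.379 without the cells of most UMIs, -0.561 at resolution 0.5, -0.425 without centring by sample, -0.519 with the members kept, -0.260 by markers alone and -0.425 as the median over other seeds, and in wild type at -0.369 as reported, -0.462 with the cell filter, -0.433 without the cells of most UMIs, -0.409 as a mean over cells, -0.417 in thinned cells, -0.482 at resolution 0.5, -0.105 without centring by sample, -0.476 with the members kept and -0.145 by markers alone. Members at least 1.5-fold lower in MZwnt11/slb numbered 4 as reported, 2 with the cell filter, 3 with median-of-ratios scaling and 0 at 2-fold. Cases of a member set apart from the others, counted once per class, numbered 2 as reported and 1 with the cell filter. Both reported cases were rps27l, in p53 response-like and in neural ectoderm-like cells. With median-of-ratios scaling 40 members lay above and 37 below 0, against 23 and 54 as reported; of 70 values followed for single genes, nearly all picked for large ratios, 0 changed sign. The causes of these shifts were not tested. No paired analysis was possible because there is 1 library per genotype. The germ cell-like class is limited by its 32 and 26 cells, and the members rps8b, rpl26 and the second rpl37 by their low counts.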
